A study of Mus musculus with 7 samples.

Results

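The collagen genes of the mouse uterus were followed by structural class through saline infusion and through 3 and 8 days of CXCL12. The members were all genes whose symbol has the form Col, a number, a, a number. The rule found 44 genes among the 23282 entries that each deposited table lists. The rule itself uses no expression values, but it was chosen with earlier results of these data known. The tissue came from young C57BL/6 females, with no genetic change named, in which recombinant human CXCL12, a chemokine of the embryo, was infused into one uterine horn and saline into the other. Whole uterine tissue was collected, and the 7 libraries are 2 saline-treated, 2 CXCL12 Day 3 and 3 CXCL12 Day 8. No day is given for the saline-treated libraries, so that saline and time cannot be told apart, and whether each library is 1 animal is not stated, so that p-values measure the spread between these libraries, which may be technical.

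Collagens are secreted proteins in which 3 chains wind into a triple helix, and the helix requires a glycine in each triplet of residues. Fibrillar collagens assemble into the cable-like fibrils that carry tension, type IV forms the sheet under epithelium and around smooth muscle and vessels, and type VI forms beaded filaments that link cells to both. In the uterus these chains come mainly from stromal fibroblasts, smooth muscle and the cells that rest on a basement membrane, and the matrix is remodelled through the oestrous cycle and around implantation.

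The fibrillar class can be told apart in the coding sequence itself, while other classes overlapped. In the longest reading frame of each gene's GENCODE M21 transcripts, runs of at least 4 consecutive triplets of codons that begin with a glycine codon (GGN) were counted, and all 44 members had such runs. The longest run held 216 to 344 triplets in the 11 fibrillar genes, with a median of 338, and these genes had only 2 to 4 runs each. The 6 type IV genes had 22 to 27 shorter runs, the longest of 39 to 66 triplets. The 6 type VI genes had 3 to 6 runs that covered 12.3% to 32.2% of their codons. Their longest runs, of 37 to 87 triplets, overlapped those of type IV. The 9 fibril-associated genes varied most, with 2 to 22 runs that covered 8.22% to 86.9% of their codons. The 2 stretches of 30 codons that follow show a fibrillar and a type IV gene, with the glycine codons of a run in capitals. Col3a1 (chr1:45311538-45349706, GRCm38.p6), which encodes the chain of type III collagen, is shown from codon 680 to codon 709, inside its single long run. Col4a1 (chr8:11198423-11312889, GRCm38.p6), which encodes a chain of the type IV network found in every basement membrane, is shown from codon 148 to codon 177, across one of its interruptions.
Col3a1: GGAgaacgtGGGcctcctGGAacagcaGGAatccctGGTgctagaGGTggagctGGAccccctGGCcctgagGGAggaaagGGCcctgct
Col4a1: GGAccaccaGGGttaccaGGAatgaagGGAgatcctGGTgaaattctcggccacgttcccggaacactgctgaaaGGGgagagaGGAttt

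Expression was measured with a QuantSeq 3′ kit, which reads the end of each polyadenylated transcript, so that the read number of a gene does not scale with its length. Total counts ranged from 6908790 to 12308982 in the 6 libraries deposited as counts, and the table of CXCL12 Day 3 replicate 1 holds log2 values. Levels are given as counts per 1000000 reads (CPM) after TMM scaling, which sets the libraries to a common level of the bulk of genes, and 3 counts, taken as the floor, correspond to 0.244 to 0.434 CPM of unscaled reads. The uterine genes Hoxa10 and Hoxa11 were detected in all 7 libraries, at 82.8 to 286 CPM and 62.5 to 200.2 CPM, and smooth muscle, stromal and epithelial markers were detected as well. Ovarian markers differed widely between libraries, with a summed level of 3612 CPM in CXCL12 Day 8 replicate 2, 962 CPM in saline replicate 2 and 5.53 to 149 CPM in the other libraries. Adipocyte markers summed to 826 and 2497 CPM in saline, 3154 and 313 CPM at Day 3 and 242 to 372 CPM at Day 8. CXCL12 Day 8 replicate 1 stood apart from its group. Across 14876 genes it correlated at 0.950 and 0.952 with the Day 3 libraries and at 0.894 and 0.901 with the other Day 8 libraries. Saline replicate 2 was about as close to the Day 3 libraries (0.946 and 0.942) and to Day 8 replicate 1 (0.942). Saline replicate 1 correlated at 0.877 to 0.900 with the other libraries. The table of Day 8 replicate 1 carries Day 3 in its name. Day 8 calls of collagens and of collagen pathway genes are therefore also given without this library. The same is done for some, but not all, of the other Day 8 fold changes that it moved. In these whole-tissue libraries, fewer cells of a type and less RNA per cell cannot be told apart.

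Collagen transcripts made up 0.689% to 1.35% of the reads. The summed level of all 44 genes was 7039 and 10347 CPM in saline, 13248 and 13977 CPM at Day 3 and 7651, 10614 and 12010 CPM at Day 8. After TMM scaling both Day 3 libraries lay above every other library, and the saline and Day 8 ranges overlapped. As a share of reads, Day 3 replicate 2 was the highest at 1.35%. Day 3 replicate 1, at 1.18%, was just below Day 8 replicate 3, at 1.19%. By class, the fibrillar genes held 73.4% to 84.7% of all collagen reads, type VI 8.21% to 14.8% and type IV 2.38% to 5.59%. The type VI share was 14.4% and 11.8% in saline, 14.5% and 14.8% at Day 3, and 13.7%, 8.83% and 8.21% at Day 8. The lowest type VI shares were thus those of Day 8 replicates 2 and 3, and Day 8 replicate 1 lay within the saline range. The 95% Wilson intervals of these shares in the count libraries, which cover counting error only, were at most 0.571 percentage points wide for type VI and 0.718 for the fibrillar class.

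**Figure D1:**
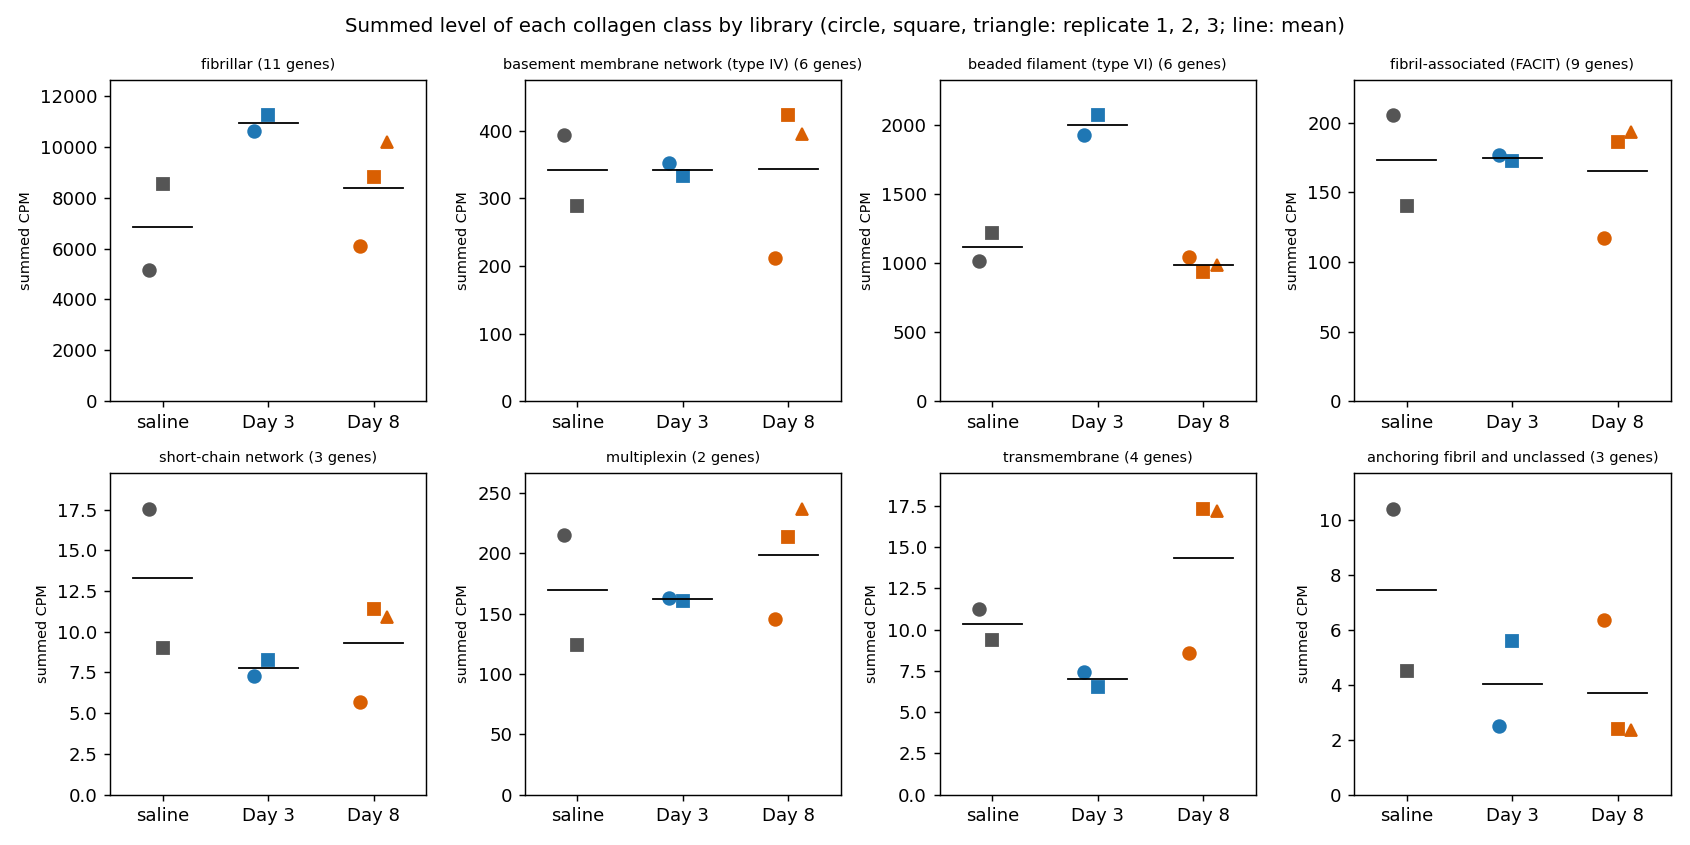
Summed level of each structural class of collagen genes in CPM (y axis, from 0, with its own scale in each panel) by group (x axis); symbols are libraries and lines are group means. The Day 3 libraries, at 1927 and 2071 CPM, are above all other libraries for type VI. The type IV means of the 3 groups are 342, 342 and 343 CPM, but the libraries spread widely around them. Type IV is at 394 and 289 CPM in saline and 352 and 333 CPM at Day 3. At Day 8 it is at 212 CPM in replicate 1 and at 422 and 395 CPM in replicates 2 and 3.

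Of the 44 members, 35 had enough reads to be tested in all 3 comparisons and 9 were tested in none. The untested genes are Col2a1, Col10a1 and Col11a2 of cartilage, Col9a1, Col19a1, Col20a1 and Col22a1 of the fibril-associated class, Col17a1 of the hemidesmosome and Col28a1. Col2a1 had no read in any library, which allows up to 0.244 to 0.434 CPM by library in the count tables, and none of the 9 exceeded 0.985 CPM. A gene was called when its fold change was 2 or more with an unadjusted P under 0.05, which are 2 of the 3 cutoffs of the study, and the FDR cutoff was applied separately. After Benjamini-Hochberg adjustment over all genes, no gene of any kind passed 0.1 in any of the 3 comparisons, while 658, 1116 and 1054 of all genes had an unadjusted P under 0.05 for Day 8 against saline (edgeR), Day 3 against saline (limma) and Day 8 against Day 3 (limma). DESeq2, run for Day 8 against saline, passed 49 genes and no collagen. Of the 35 collagens, 2, 4 and 8 had an unadjusted P under 0.05 in the same order, where 4.28%, 7.5% and 7.09% of all genes did. The Day 3 and Day 8 comparisons with saline share the same 2 saline libraries.

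For Day 3 against saline, 2 of 35 collagens were called, both lower, against 4.65% of all 14876 genes tested (1.98% higher and 2.67% lower). The median log2 fold change of the collagens was -0.12, beside 0.01 for all genes. For Day 8 against saline, 2 were called, both lower, against 2.94% of 15388 genes (1.53% higher and 1.42% lower), with a median of -0.18 beside -0.01. For Day 8 against Day 3, 4 were called, 2 in each direction, against 4.57% of genes (2.23% higher and 2.35% lower), with a median of -0.11 beside 0.00. When Day 8 replicate 1 was left out, 5 collagens were called for Day 8 against saline (Col4a5 and Col4a6 higher, Col6a4, Col6a6 and Col7a1 lower), against 6.69% of all genes, with a collagen median of 0.00. Against Day 3, 7 were then called at Day 8 (Col4a5, Col4a6, Col9a2 and Col23a1 higher, Col6a4, Col6a6 and Col7a1 lower), against 11.1% of all genes, and the collagen median turned to 0.14.

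The groups did not overlap for 7 of the 35 collagens at Day 8 against saline on the CPM scale, 2 higher and 5 lower, where 19.2% of all genes did not overlap (9.07% higher and 10.2% lower), and for 9 on the quantile-normalized log2 scale, 1 higher and 8 lower (18.9% of all genes, 9.42% and 9.48% by direction). On that scale, which the limma comparisons use, they did not overlap for 15 at Day 3 against saline, 6 higher and 9 lower, where 46.4% of all genes did not (24.1% higher and 22.2% lower). By CPM this was 20 collagens, 10 in each direction (26.8% of all genes higher and 21.7% lower), since Col1a1, Col1a2 and Col5a2 then lay above saline Col9a3 and Col25a1 below it, and Col3a1 changed from below to above. For Day 8 against Day 3, the groups did not overlap for 16 collagens on the quantile scale, 4 higher and 12 lower, where 31.8% of all genes did not (15.9% in each direction), and for 14 by CPM, 3 higher and 11 lower (13.8% and 18.8% of all genes, 32.6% together). The direction was more even without Day 8 replicate 1, with 14 higher and 13 lower on the quantile scale (31.4% and 32.7% of all genes, 64.2% together), and at Day 8 against saline 14 were then higher and 7 lower by CPM (20.4% and 21.1%, 41.5% together).

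**Figure D2:**
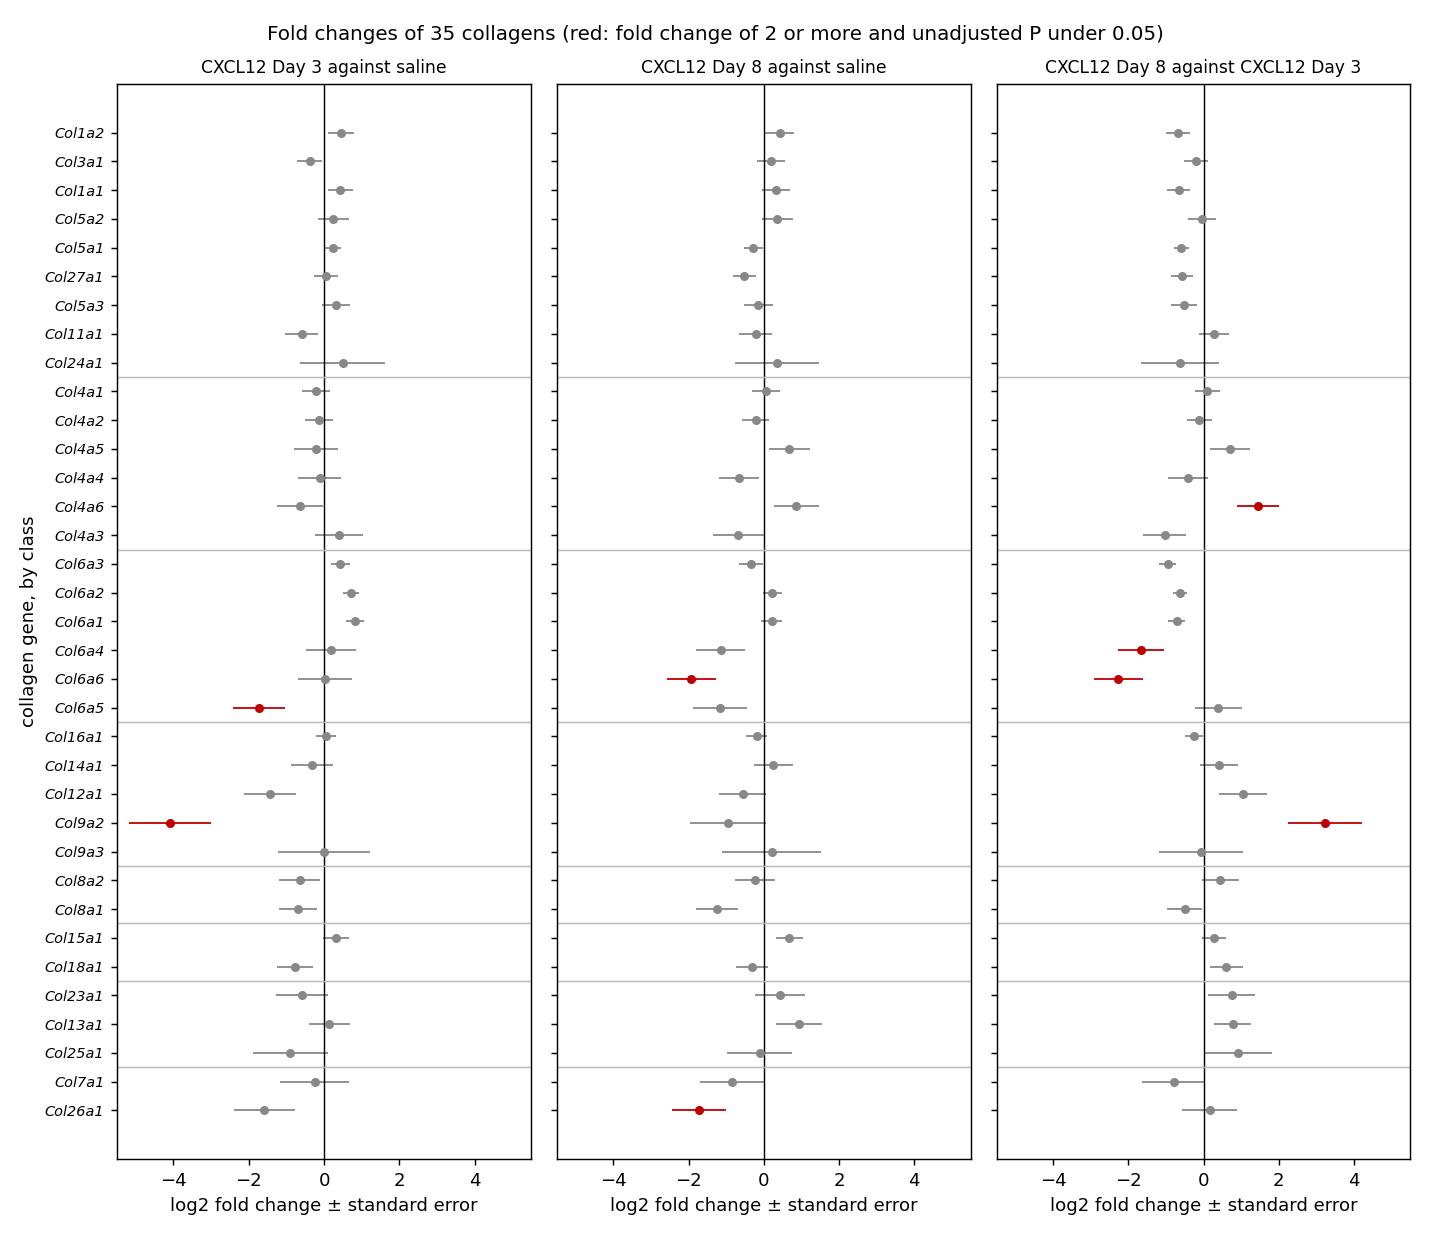
Log2 fold change with its standard error (x axis) of the 35 tested collagen genes (y axis, grouped by class between the grey lines) in the 3 comparisons; red points are called. Calls number 2, 2 and 4 from left to right, and the type VI genes hold 1, 1 and 2 of them.

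The fibrillar class supplied the most abundant collagen transcripts, and none of its 9 tested genes was called in any comparison. Col1a1 and Col1a2 encode the 2 chains of type I collagen, the main fibril of most connective tissue. Col1a2 was at 1427 and 2883 CPM in saline, 4183 and 4637 CPM at Day 3 and 2148, 3142 and 3341 CPM at Day 8. Col1a1 was at 1015 and 2124 CPM in saline, 2720 and 2870 CPM at Day 3 and 1635, 1990 and 2247 CPM at Day 8. For both genes each Day 3 library was above every other library in CPM, and saline replicate 1 was the lowest. The fold change of Day 3 against saline depended on the scaling and on saline replicate 1. It was 0.45 ± 0.34 (SE; limma unadjusted P = 0.23) for Col1a2 on the quantile-normalized log2 scale and 1.07 (limma unadjusted P = 0.029) on TMM log2 CPM, where Col1a2 would be called. For Col1a1 the 2 scales gave 0.43 ± 0.33 and 0.88. On the quantile scale the values were 0.05 for Col1a2 and -0.04 for Col1a1 without saline replicate 1, and 0.85 and 0.91 without saline replicate 2. Quantile normalization forces one distribution on all libraries, which draws the most abundant genes together.

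Col3a1, whose type III chain forms thinner fibrils together with type I, was at 2392 and 3170 CPM in saline, 3257 and 3221 CPM at Day 3 and 2075, 3294 and 4159 CPM at Day 8. The Day 3 libraries were just above the saline-treated ones in CPM and the Day 8 libraries spanned them all. Its direction at Day 3 turned with the scaling, from -0.38 ± 0.34 on the quantile scale to 0.18 on TMM log2 CPM, neither past the test. Relative to Col1a1 in the same library, a measure that needs no scaling between libraries, Col3a1 reads stood at 2.36 and 1.49 in saline, 1.20 and 1.12 at Day 3 and 1.27, 1.66 and 1.85 at Day 8. This ratio was lowest in the 2 Day 3 libraries. The ratio of Col1a2 to Col1a1, the 2 partners of one molecule, kept to 1.31 to 1.62 in all 7 libraries.

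Type V collagen is incorporated inside type I fibrils and limits their diameter. Col5a1 was at 149 and 149 CPM in saline, 206 and 212 CPM at Day 3 and 110, 132 and 126 CPM at Day 8. Its Day 8 libraries were all below the others, with a log2 fold change of -0.59 ± 0.20 against Day 3 (limma unadjusted P = 0.018) and -0.28 ± 0.25 against saline (edgeR unadjusted P = 0.31). Without Day 8 replicate 1 these became -0.49 and -0.20. Col5a2, the partner chain, was at 126 and 165 CPM in saline, 187 and 217 CPM at Day 3 and 104, 206 and 250 CPM at Day 8, so that its Day 8 libraries spanned the full range. The ratio of Col5a1 to Col5a2 was 1.19 and 0.903 in saline, 1.10 and 0.975 at Day 3, 1.06 in Day 8 replicate 1 and 0.642 and 0.504 in Day 8 replicates 2 and 3. The 2 partner chains of type V were therefore not read in one proportion in Day 8 replicates 2 and 3. The rarer fibrillar genes Col27a1, Col5a3, Col11a1 and Col24a1 lay between 0.116 and 29.9 CPM, with fold changes of -0.61 to 0.50 over the 3 comparisons and no P under 0.05.

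**Figure D3:**
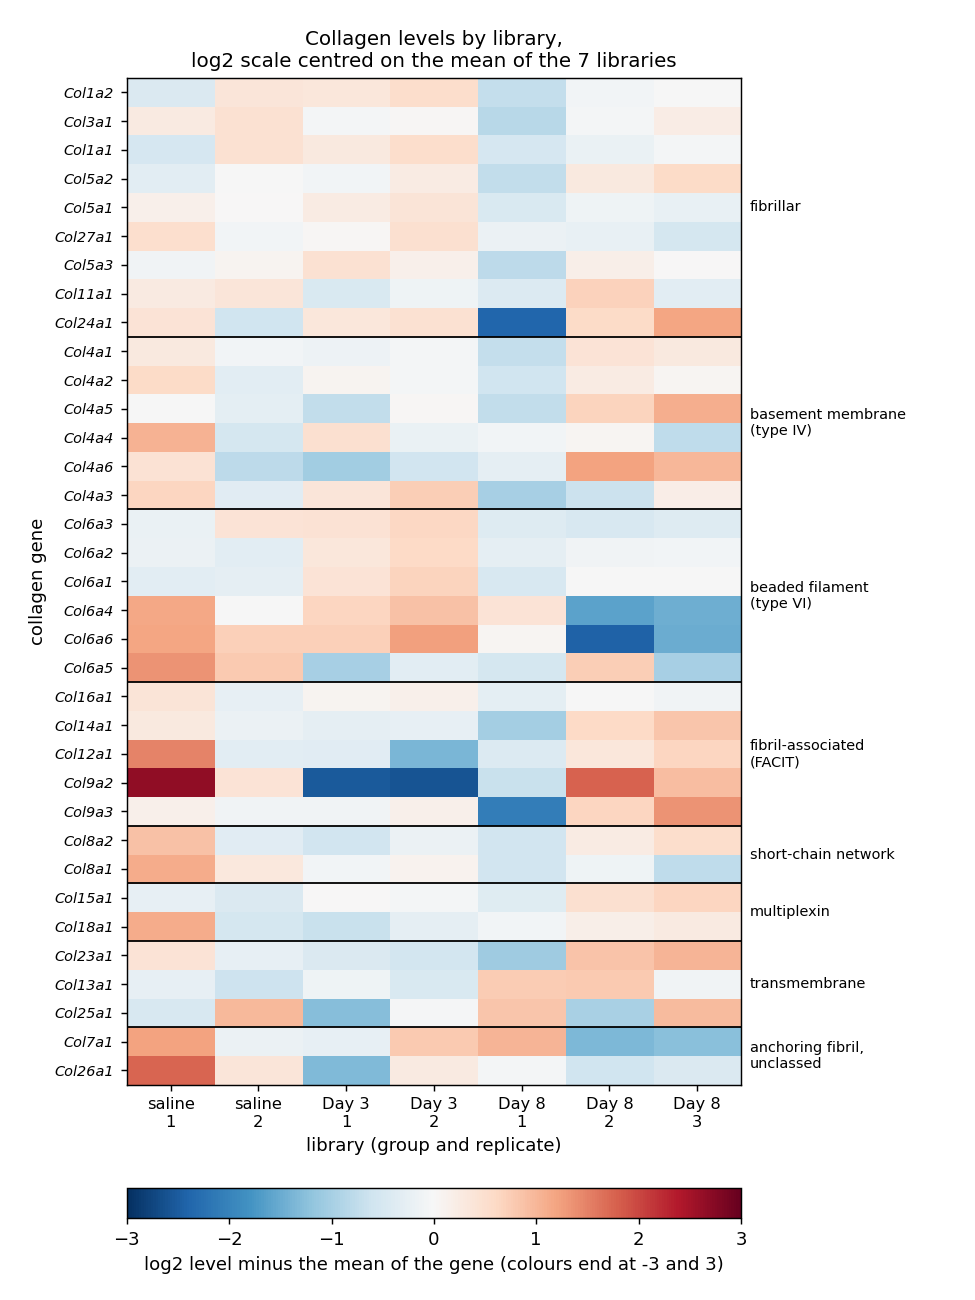
Level of the 35 tested collagens (y axis, by class) in the 7 libraries (x axis) on the quantile-normalized log2 scale, minus each gene's mean over the libraries. Col6a4 and Col6a6 are lowest in Day 8 replicates 2 and 3, and Col9a2 is low in both Day 3 libraries.

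The 6 type VI genes did not share one pattern. Col6a1, Col6a2 and Col6a3 encode the chains of the classical beaded filament, which assemble in equal number. Col6a1 was at 145 and 165 CPM in saline, 310 and 353 CPM at Day 3 and 145, 197 and 198 CPM at Day 8. Col6a2 was at 278 and 286 CPM in saline, 552 and 609 CPM at Day 3 and 323, 329 and 339 CPM at Day 8. Both Day 3 libraries were above all others for each gene, and the Day 8 libraries lay near the saline-treated ones.

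At Day 3 against saline, the log2 fold change was 0.83 ± 0.25 for Col6a1 (limma unadjusted P = 0.0099) and 0.72 ± 0.21 for Col6a2 (limma unadjusted P = 0.0082), both under the fold of 2 on this scale and both with an adjusted p of 0.617. On TMM log2 CPM the values were 1.04 and 0.99, so Col6a1 would be called. The ratio of their mean CPM was 2.13 for Col6a1 and 2.06 for Col6a2. Day 8 against Day 3 gave log2 fold changes of -0.71 ± 0.23 (unadjusted P = 0.013) and -0.62 ± 0.19 (unadjusted P = 0.010) in limma, and without Day 8 replicate 1 of -0.54 and -0.56. Against saline the Day 8 values were 0.22 ± 0.28 and 0.23 ± 0.25.

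Col6a3, the longest of these chains, was at 385 and 661 CPM in saline, 880 and 904 CPM at Day 3 and 444, 376 and 411 CPM at Day 8. Both Day 3 libraries were again the highest, and the saline-treated libraries lay far apart. Its log2 fold change was -0.95 ± 0.22 at Day 8 against Day 3 (limma unadjusted P = 0.0028, adjusted p = 0.655), the smallest P of any collagen in that comparison, and -0.94 without Day 8 replicate 1. At Day 3 against saline it was 0.43 ± 0.24 (limma unadjusted P = 0.12). The ratio of Col6a1 to Col6a2 kept to 0.451 to 0.598 over the 7 libraries, while Col6a3 to Col6a1 ranged from 1.91 to 4.00.

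Col6a4, Col6a5 and Col6a6 encode chains that can take the place of the chain from Col6a3, and the 3 genes lie in a row on chromosome 9 between 105689417 and 106096828, all on the minus strand (GRCm38.p6, the assembly that mm10 corresponds to). Their RefSeq promoter windows, 250 bases before to 50 bases after the start, are shown because 2 of the 3 genes were called lower at Day 8 against Day 3. Capitals mark 3 motifs on either strand. They are the GC box, spelled GGGCGG, the box named after its letters CCAAT, and the core of the TATA box, which reads TATAAA. Col6a4 is at chr9:106096642-106096941, Col6a5 at chr9:105960594-105960893 and Col6a6 at chr9:105828036-105828335.
Col6a4: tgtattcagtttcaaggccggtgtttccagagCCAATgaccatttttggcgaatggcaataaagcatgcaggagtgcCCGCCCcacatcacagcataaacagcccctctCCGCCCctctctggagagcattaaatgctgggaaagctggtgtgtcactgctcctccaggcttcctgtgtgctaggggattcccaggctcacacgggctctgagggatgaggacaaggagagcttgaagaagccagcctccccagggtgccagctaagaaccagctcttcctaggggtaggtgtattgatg
Col6a5: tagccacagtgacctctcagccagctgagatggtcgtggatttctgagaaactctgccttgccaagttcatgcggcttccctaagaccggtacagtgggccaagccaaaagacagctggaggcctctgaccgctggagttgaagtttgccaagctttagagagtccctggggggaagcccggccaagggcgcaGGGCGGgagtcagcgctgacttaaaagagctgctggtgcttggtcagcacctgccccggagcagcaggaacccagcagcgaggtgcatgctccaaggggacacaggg
Col6a6: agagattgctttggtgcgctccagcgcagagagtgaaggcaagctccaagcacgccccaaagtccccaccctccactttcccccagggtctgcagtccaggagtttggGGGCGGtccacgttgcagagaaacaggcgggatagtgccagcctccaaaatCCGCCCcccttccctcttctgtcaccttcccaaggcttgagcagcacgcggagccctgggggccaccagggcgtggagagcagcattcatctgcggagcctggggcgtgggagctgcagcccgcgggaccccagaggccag

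The windows of Col6a4 and Col6a6 each held 2 GC boxes and that of Col6a5 held 1, and only Col6a4 had a CCAAT box. None held a TATA box core. A match of letters is a description and not a site of binding.

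Col6a4 was at 184 and 92.2 CPM in saline, 170 and 184 CPM at Day 3, 123 CPM in Day 8 replicate 1 and 30.0 and 33.4 CPM in Day 8 replicates 2 and 3. The latter 2 libraries were far below the others, and Day 8 replicate 1 lay inside the saline range. The log2 fold change of Day 8 against Day 3 was -1.66 ± 0.61 (limma unadjusted P = 0.026, adjusted p = 0.696), a call, and that against saline was -1.15 ± 0.66 (edgeR unadjusted P = 0.12). Without Day 8 replicate 1 the values were -2.30 (limma unadjusted P = 0.0006) and -2.11 (edgeR unadjusted P = 0.0021), and Col6a4 was then called in both comparisons. The call against Day 3 was lost without either Day 3 library or either of Day 8 replicates 2 and 3, when the values were -1.76 to -1.30, and also without a filter on low values (-1.66, limma unadjusted P = 0.070), and was kept in 8 of 13 alternatives.

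Col6a6 was at 18.8 and 14.3 CPM in saline, 14.2 and 19.7 CPM at Day 3 and 8.56, 1.72 and 2.85 CPM at Day 8. All 3 Day 8 libraries were below all 4 others, and Day 8 replicate 1 was the nearest to them. Col6a6 was called lower at Day 8 both against saline, with -1.92 ± 0.65 (edgeR unadjusted P = 0.020, adjusted p = 0.956), and against Day 3, with -2.26 ± 0.66 (limma unadjusted P = 0.0089, adjusted p = 0.684). Without Day 8 replicate 1 these were -2.85 and -2.93. The call against saline was kept in 12 of 14 alternatives and lost without saline replicate 1 (-1.71, edgeR unadjusted P = 0.096) and without Day 8 replicate 3 (-1.70, edgeR unadjusted P = 0.052). That against Day 3 was lost in 1 of 13, without Day 3 replicate 2 (-1.99, limma unadjusted P = 0.060).

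Col6a5 differed from its neighbours. It was at 5.69 and 4.02 CPM in saline, 0.973 and 1.55 CPM at Day 3 and 1.39, 4.10 and 0.915 CPM at Day 8. The 2 Day 3 libraries were below saline, with a log2 fold change of -1.74 ± 0.69 (limma unadjusted P = 0.036, adjusted p = 0.617), a call that did not outlast leaving out any 1 of the 4 libraries compared, with -2.04 to -1.39, or testing without a filter (limma unadjusted P = 0.053). The Day 8 libraries overlapped both groups. Relative to Col6a3 in the same library, Col6a4 reads were 0.477 and 0.140 in saline, 0.193 and 0.203 at Day 3, 0.278 in Day 8 replicate 1 and 0.080 and 0.081 in Day 8 replicates 2 and 3. For type VI as a class, the median log2 fold change was 0.31 at Day 3 against saline, -0.75 at Day 8 against saline and -0.83 at Day 8 against Day 3, the latter 2 being -0.67 and -0.75 without Day 8 replicate 1. Its sign was the same in all 13, 14 and 13 alternative fits, while the median of Col6a1, Col6a2 and Col6a3 alone at Day 8 against saline was 0.22.

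**Figure D4:**
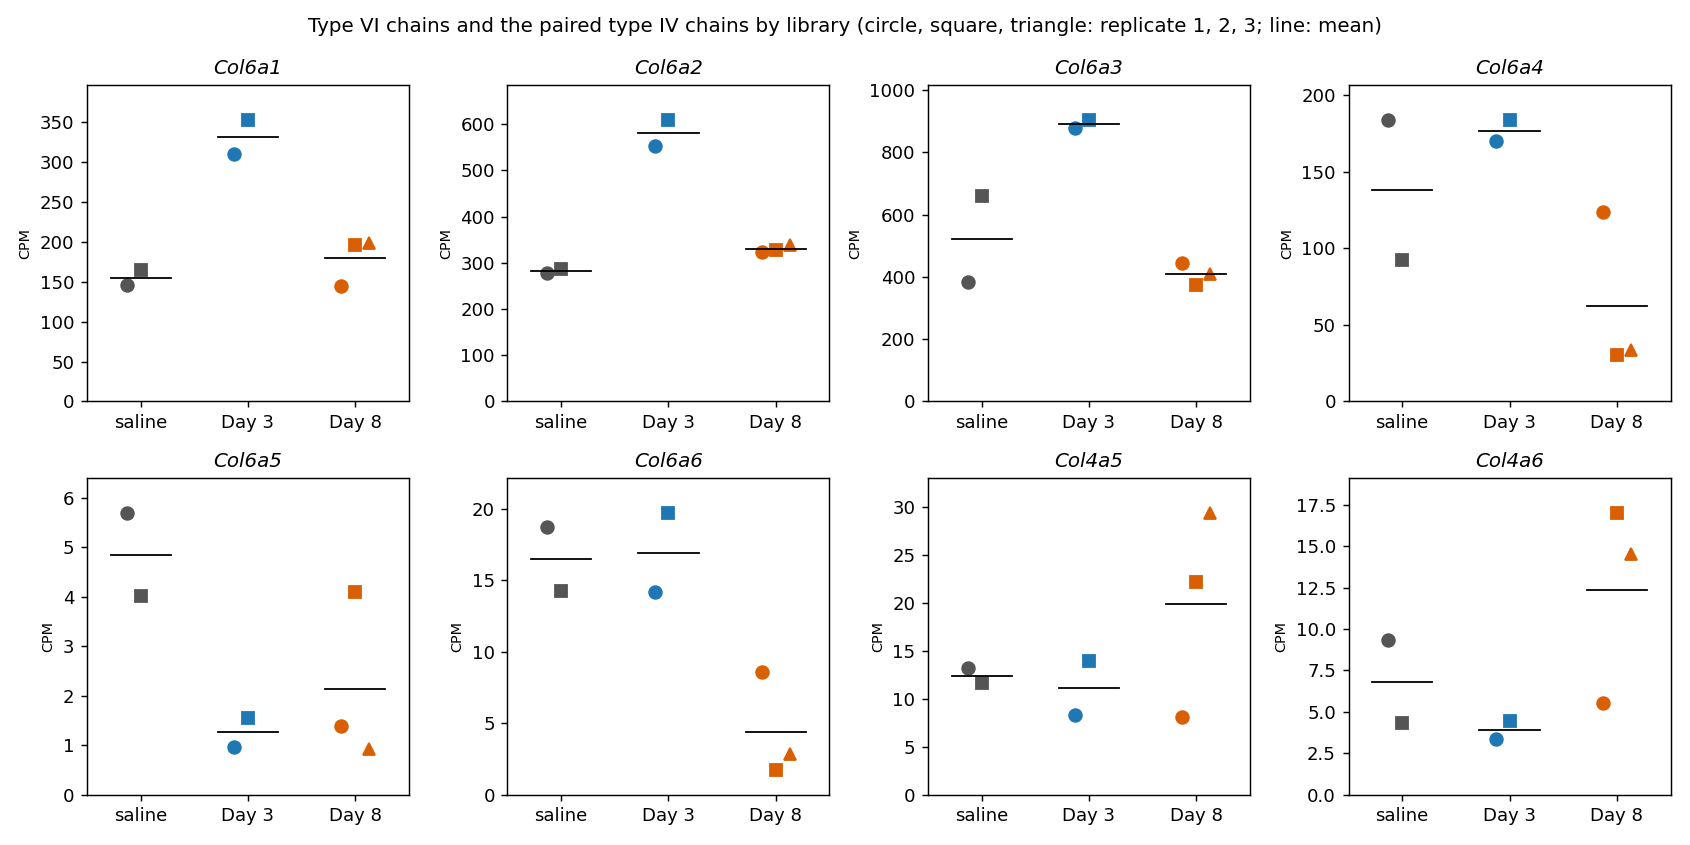
CPM (y axis, from 0, with its own scale in each panel) of the 6 type VI genes and of Col4a5 and Col4a6 by group (x axis); symbols are libraries and lines are group means. Col6a1, Col6a2 and Col6a3 are highest in the Day 3 libraries, Col6a6 is at 8.56 CPM or less in all Day 8 libraries, and Col4a6 is at 17.0 and 14.5 CPM in Day 8 replicates 2 and 3.

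Type IV genes lie in 3 pairs that face away from each other, so that the 2 genes of a pair start close together on opposite strands. The starts of Col4a1 and Col4a2 are 21 bases apart on chromosome 8, and those of Col4a5 and Col4a6 are 1343 bases apart on chromosome X. The windows of both pairs are shown because the levels of the partners bear on whether one start region goes with one level. Col4a1 (chr8:11312777-11313076, minus strand) and Col4a2 (chr8:11312555-11312854, plus strand) share 78 bases read from opposite strands. Col4a5 is at chrX:141475169-141475468 on the plus strand and Col4a6 at chrX:141474027-141474326 on the minus strand (GRCm38.p6, RefSeq). Capitals mark the same 3 motifs as above.
Col4a1: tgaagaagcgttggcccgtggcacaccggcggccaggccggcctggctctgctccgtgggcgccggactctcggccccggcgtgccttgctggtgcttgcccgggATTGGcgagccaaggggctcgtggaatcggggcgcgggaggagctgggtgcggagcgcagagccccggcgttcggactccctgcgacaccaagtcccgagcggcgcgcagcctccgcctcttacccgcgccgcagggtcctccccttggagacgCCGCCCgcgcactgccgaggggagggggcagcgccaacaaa
Col4a2: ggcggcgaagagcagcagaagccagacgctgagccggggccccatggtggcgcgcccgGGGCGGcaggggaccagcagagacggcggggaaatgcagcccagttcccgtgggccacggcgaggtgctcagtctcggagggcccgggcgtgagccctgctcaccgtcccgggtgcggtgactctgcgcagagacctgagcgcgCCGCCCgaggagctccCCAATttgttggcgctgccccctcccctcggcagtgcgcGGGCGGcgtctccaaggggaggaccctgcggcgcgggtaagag
Col4a5: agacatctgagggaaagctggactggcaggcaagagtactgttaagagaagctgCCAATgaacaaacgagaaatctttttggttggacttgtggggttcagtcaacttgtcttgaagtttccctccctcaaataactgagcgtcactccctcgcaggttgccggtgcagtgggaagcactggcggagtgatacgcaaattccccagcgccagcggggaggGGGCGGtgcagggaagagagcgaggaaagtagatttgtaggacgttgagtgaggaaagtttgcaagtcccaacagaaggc
Col4a6: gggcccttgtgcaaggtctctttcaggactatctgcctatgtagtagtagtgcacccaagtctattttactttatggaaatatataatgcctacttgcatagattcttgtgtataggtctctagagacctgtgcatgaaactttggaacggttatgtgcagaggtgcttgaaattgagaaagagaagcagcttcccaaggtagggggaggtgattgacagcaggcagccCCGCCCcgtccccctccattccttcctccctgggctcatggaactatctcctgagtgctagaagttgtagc

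The Col4a2 window held 3 GC boxes and the other 3 windows held 1 each, and every window but that of Col4a6 had a CCAAT box. The windows of Col4a1 and Col4a2 were 74.0% and 73.7% GC, those of Col4a5 and Col4a6 were 52.7% and 48.3%, and the median of all promoters was 52.7%.

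Col4a1 and Col4a2 encode the chains of the ubiquitous type IV network. Col4a1 was at 222 and 190 CPM in saline, 213 and 209 CPM at Day 3 and 127, 266 and 249 CPM at Day 8. Col4a2 was at 128 and 75.1 CPM in saline, 111 and 93.8 CPM at Day 3 and 62.3, 106 and 94.6 CPM at Day 8. For both genes Day 8 replicate 1 was the lowest library, and log2 fold changes were between -0.21 and 0.11 in all 3 comparisons. These values depended on that library. Without it Col4a1 was at 0.33 at Day 8 against saline. With it counted with Day 3, Day 8 against Day 3 gave 0.66 for Col4a1 and 0.34 for Col4a2. The ratio of Col4a1 to Col4a2 was 1.74 to 2.63 over the 7 libraries, with overlapping groups.

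Col4a5 and Col4a6 encode chains of the network found under some epithelia and around smooth muscle. Col4a6 was at 9.32 and 4.31 CPM in saline, 3.34 and 4.46 CPM at Day 3 and 5.55, 17.0 and 14.5 CPM at Day 8. All Day 8 libraries were above both Day 3 libraries, with a log2 fold change of 1.46 ± 0.56 (limma unadjusted P = 0.031, adjusted p = 0.696), a call, while the saline-treated libraries overlapped Day 8 replicate 1 (0.87 ± 0.59, edgeR unadjusted P = 0.18). Without Day 8 replicate 1 the values were 1.91 against Day 3 and 1.22 against saline (edgeR unadjusted P = 0.042). The call against Day 3 was kept in 7 of 13 alternatives and lost without either Day 3 library or either of Day 8 replicates 2 and 3, at 1.18 to 1.68, without a filter on low values (1.45, limma unadjusted P = 0.063) and with the replicate block (1.28, limma unadjusted P = 0.11).

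Col4a5 was at 13.2 and 11.7 CPM in saline, 8.27 and 14.0 CPM at Day 3 and 8.10, 22.2 and 29.4 CPM at Day 8. Day 8 replicates 2 and 3 were the 2 highest libraries and Day 8 replicate 1 the lowest, so that the fold changes of 0.70 ± 0.54 against Day 3 and 0.68 ± 0.53 against saline did not pass the test. Without Day 8 replicate 1 they were 1.23 (limma unadjusted P = 0.010) and 1.06 (edgeR unadjusted P = 0.018). All 8 smooth muscle markers (Acta2, Myh11 and others) were at 36.2 CPM or more in every library, and in the same 2 libraries their sum was 4623 and 4400 CPM, compared with 2082 CPM in Day 8 replicate 1, 3569 and 3871 CPM at Day 3 and 2702 and 1736 CPM in saline. Their part in the Col4a5 and Col4a6 values was not tested. Col4a6 reads were 0.044, 0.064 and 0.058 of Col4a1 reads at Day 8, 0.016 and 0.021 at Day 3 and 0.042 and 0.023 in saline. The third pair, Col4a3 and Col4a4 on chromosome 1, stayed between 0.926 and 18.2 CPM with no P under 0.05.

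**Figure D5:**
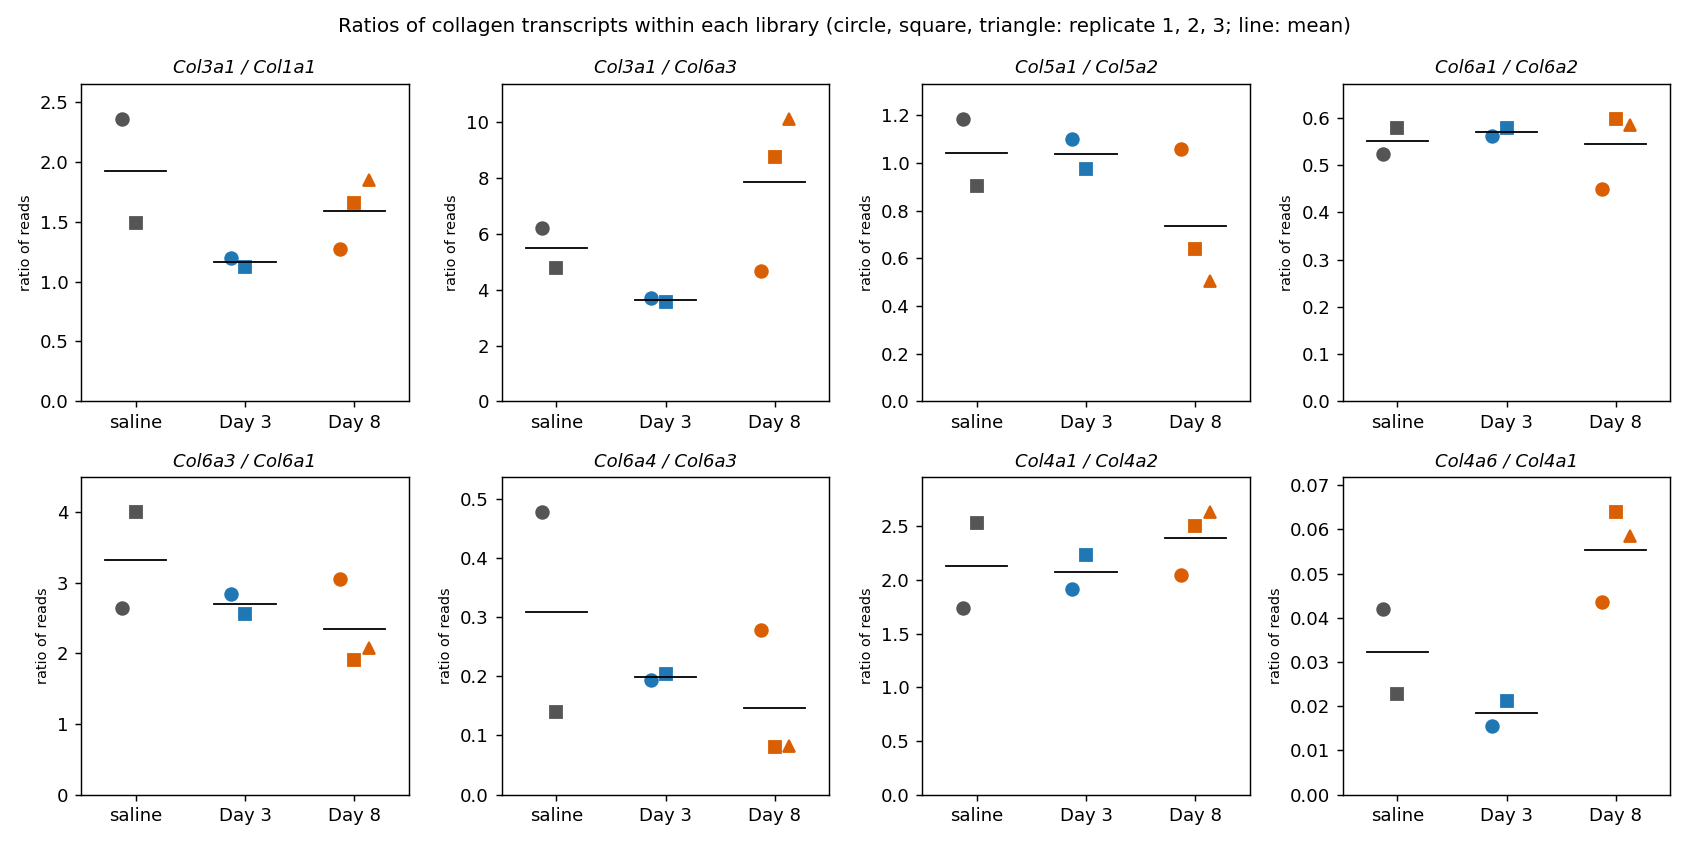
Ratio of the reads of 2 collagen genes within one library (y axis, from 0) by group (x axis); symbols are libraries and lines are group means. Col6a1 over Col6a2 keeps to 0.451 to 0.598, Col5a1 over Col5a2 and Col6a4 over Col6a3 are lowest in Day 8 replicates 2 and 3, and Col4a6 over Col4a1 is highest there.

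Among the fibril-associated collagens, which sit on the surface of fibrils, 5 of 9 genes were tested and 1 was called. Col9a2, a chain of type IX collagen known from cartilage, had 45 and 13 counts in saline, 0 counts in Day 3 replicate 2 and 3, 40 and 14 counts at Day 8. In CPM it was at 5.45 and 1.25 in saline, 0.0061 and 0 at Day 3 and 0.347, 3.28 and 1.42 at Day 8. Both Day 3 libraries were at or under the floor of 3 counts per library, a mean of 0.316 CPM, and the saline mean was at least 10.6-fold higher and the Day 8 mean at least 5.33-fold higher than that floor. These bounds moved with single libraries, to 3.94 without saline replicate 1, 17.2 without saline replicate 2, 2.80 without Day 8 replicate 2 and 7.44 without Day 8 replicate 1. The gene was called in both comparisons with Day 3 by limma (unadjusted P = 0.0055 and 0.012, adjusted p = 0.617 and 0.689), and the fitted fold changes of such a gene depend on the pseudocount. Without saline replicate 1 the call against saline was lost (limma unadjusted P = 0.065), and without Day 3 replicate 2 that of Day 8 against Day 3 (limma unadjusted P = 0.054). Of 7 cartilage and bone markers, Acan, Ibsp, Matn3 and Bglap were at 0 to 0.33 CPM in all libraries, Hapln1 at 0.41 to 2.78 CPM and Sox9 at 16.7 to 99.6 CPM. Runx2, a regulator of bone formation, was at 1.08 and 1.87 CPM at Day 3 and 2.97 to 24.0 CPM in the other libraries, lowest in the same 2 libraries as Col9a2. It was called higher at Day 8 against Day 3 (2.22 ± 0.78, limma unadjusted P = 0.021, adjusted p = 0.693). Its value without Day 8 replicate 1 is not given here. The 7 summed to 41.0 and 42.1 CPM at Day 3, 21.5 and 51.3 CPM in saline and 26.8 to 104 CPM at Day 8. The 8 ovarian markers summed to 149 and 962 CPM in saline, 5.53 and 7.36 CPM at Day 3 and 87.6, 3612 and 9.56 CPM at Day 8. Their part in the Col9a2 values was not tested.

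Col16a1 was the most abundant gene of this class, at 128 and 90.1 CPM in saline, 128 and 127 CPM at Day 3 and 88.4, 101 and 97.4 CPM at Day 8, with fold changes of -0.25 to 0.05. Col14a1, which binds the proteoglycans of fibrils, was at 57.9 and 44.0 CPM in saline, 43.6 and 42.3 CPM at Day 3 and 24.2, 71.9 and 85.5 CPM at Day 8, so that Day 8 held both the lowest and the highest libraries. Its log2 fold change against Day 3 was 0.97 without Day 8 replicate 1 (limma unadjusted P = 0.0049). Col12a1, associated with tissue under tension, was at 13.1 and 4.02 CPM in saline, 3.65 and 1.66 CPM at Day 3 and 3.24, 6.40 and 7.63 CPM at Day 8. Its log2 fold change at Day 3 against saline was -1.44 ± 0.69 (limma unadjusted P = 0.069) with both Day 3 libraries below both saline-treated ones. This value was -0.55 without saline replicate 1 and -2.35 without saline replicate 2. Col9a3 was at 1.32 CPM or less throughout.

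The multiplexins lie in the zone between basement membrane and stroma, and their ends are released as fragments, endostatin in the case of Col18a1. Col15a1 was at 80.7 and 75.5 CPM in saline, 117 and 103 CPM at Day 3 and 80.4, 138 and 156 CPM at Day 8. Col18a1 was at 134 and 48.2 CPM in saline, 46.0 and 57.3 CPM at Day 3 and 65.0, 75.1 and 80.3 CPM at Day 8. The Day 3 libraries of Col15a1 were above both saline-treated ones, and those of Col18a1 straddled saline replicate 2, far below saline replicate 1. Neither gene was called in any comparison, and the nearest to the test was Col15a1 at Day 8 against saline (0.68 ± 0.35, edgeR unadjusted P = 0.093). This value was 0.92 without Day 8 replicate 1 (edgeR unadjusted P = 0.013), still under the fold of 2.

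The remaining classes were present at low levels. The short-chain network genes Col8a1 and Col8a2, known from vessels and the cornea, were at 1.53 to 6.17 CPM and 3.93 to 11.4 CPM. Col8a1 was at 6.17 and 3.74 CPM in saline, 2.69 and 2.90 CPM at Day 3 and 1.74, 2.95 and 1.53 CPM at Day 8. Both saline-treated libraries were above all others, with log2 fold changes of -1.24 ± 0.56 at Day 8 (edgeR unadjusted P = 0.062, and -1.13 without Day 8 replicate 1) and -0.70 ± 0.51 at Day 3 (limma unadjusted P = 0.21). The transmembrane collagens are anchored in the cell membrane, and 3 of 4 were tested. Col23a1 was at 8.35 and 5.65 CPM in saline, 4.73 and 4.15 CPM at Day 3 and 2.78, 12.0 and 13.3 CPM at Day 8. Col13a1 was at 2.06 and 1.63 CPM in saline, 2.15 and 1.55 CPM at Day 3 and 3.82, 4.60 and 2.14 CPM at Day 8, and Col25a1 lay between 0.221 and 1.92 CPM. The Col23a1 groups overlapped because of Day 8 replicate 1, and none of these genes was called with all libraries. Without it Col23a1 was called higher against Day 3 (1.40, limma unadjusted P = 0.0056).

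Col7a1, which forms the anchoring fibrils under stratified epithelium, was at 6.05 and 2.49 CPM in saline, 2.15 and 4.25 CPM at Day 3 and 5.09, 1.15 and 0.915 CPM at Day 8. It was not called with all libraries (-0.85 ± 0.86 at Day 8 against saline, edgeR unadjusted P = 0.36), but Day 8 replicates 2 and 3 were the lowest, and without Day 8 replicate 1 it was called lower against saline (-2.02, edgeR unadjusted P = 0.027) and against Day 3 (-1.57, limma unadjusted P = 0.047). Col26a1, first described in testis and ovary, was at 4.36 and 1.72 CPM in saline, 0.329 and 1.35 CPM at Day 3 and 1.04, 0.985 and 0.712 CPM at Day 8. Saline replicate 1 was the highest library and both saline-treated libraries were above the others. Col26a1 was called lower at Day 8 against saline (-1.72 ± 0.71, edgeR unadjusted P = 0.046, adjusted p = 0.956). This call was lost in 7 of the 13 alternatives that tested the gene. Among them was each fit without 1 library except that without saline replicate 2 (-1.81 without Day 8 replicate 1 and -0.91 without saline replicate 1).

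The promoters of the members shared GC boxes more often than promoters at large. Of the 44 genes, 35 matched a RefSeq promoter of GRCm38.p6, and GGGCGG on either strand was found in 22 of them (62.9%), beside 35.9% of all 27025 promoters. CCAAT was found in 12 (34.3% beside 37.9%) and TATAAA in 5 (14.3% beside 14.2%). The hormone receptor motifs TGTTCT and AGGTCA were found in 2 and 8 members (5.71% and 22.9%, beside 19.0% and 16.0%). These shares are descriptions of letters in 300 bases. The promoters compared were not matched for GC content, on which the number of GC boxes depends. Not matched were Col1a1, Col5a2, Col2a1, Col4a3, Col14a1, Col12a1, Col9a3, Col22a1 and Col26a1.

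Collagen chains are modified, folded, trimmed and cross-linked by a common set of proteins, and 35 genes of these steps were in the tables, with 10 small leucine-rich proteoglycans of fibrils and 10 collagen receptors, 55 genes in all. Of the 48 tested at Day 3 against saline, 2 were called higher and 1 lower, beside 1.98% and 2.67% of all genes. Serpinh1, the chaperone specific to collagen (HSP47), was at 78.2 and 380 CPM in saline, 572 and 619 CPM at Day 3 and 337, 327 and 366 CPM at Day 8. Its log2 fold change at Day 3 was 1.54 ± 0.61 (limma unadjusted P = 0.034), and saline replicate 1 was far below every other library. Without it the value was 0.42, and the calls of Ogn and Itga11 that follow were lost as well, at 0.99 and -1.37. Ogn, a small leucine-rich proteoglycan of fibrils, was at 137 and 199 CPM in saline, 444 and 463 CPM at Day 3 and 94.5, 265 and 233 CPM at Day 8. It was called higher at Day 3 against saline (1.20 ± 0.48, limma unadjusted P = 0.036) and lower at Day 8 against Day 3 (-1.14 ± 0.43, limma unadjusted P = 0.030), the latter at -0.66 without Day 8 replicate 1. Itga11, a subunit of a collagen-binding integrin, was called lower at Day 3, from 8.47 and 2.59 CPM in saline to 1.19 and 0.518 CPM (-2.28 ± 0.84, limma unadjusted P = 0.026).

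At Day 8 against saline, 1 of the 50 tested genes of the 55 was called, beside 2.94% of all genes. Loxl1, a lysyl oxidase that cross-links elastin and collagen, was at 158 and 62.0 CPM in saline, 53.7 and 55.1 CPM at Day 3 and 44.4, 37.3 and 44.2 CPM at Day 8. Every Day 8 library was below both saline-treated ones (-1.39 ± 0.41, edgeR unadjusted P = 0.011). The value was -1.43 without Day 8 replicate 1 and -0.56, no longer a call, without saline replicate 1. At Day 8 against Day 3, 2 of 48 were called lower, beside 2.35% of all genes. They were Ogn and Adamts14, a procollagen peptidase at 3.42 and 2.49 CPM at Day 3 and 1.39, 1.56 and 0.508 CPM at Day 8 (-1.37 ± 0.59, limma unadjusted P = 0.049, and -1.57 without Day 8 replicate 1). The median log2 fold change over these genes was 0.08 at Day 3 against saline, 0.04 at Day 8 against saline and -0.22 at Day 8 against Day 3.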

How the data were processed

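Whole mouse uterine tissue was sequenced with a QuantSeq 3′ kit in 2 saline-treated, 2 CXCL12 Day 3 and 3 CXCL12 Day 8 libraries. The authors aligned reads with Bowtie2 and counted unique and multiple alignments, so that reads of similar genes may be shared, and strand was not stated in the counting. The submitters' processing notes list Bowtie2, edgeR, mm10 and hg19 with no role or version. The authors deposited raw counts for 6 libraries. For CXCL12 Day 3 replicate 1 the deposited table holds log2 values of normalized counts, of which 97.2% of 3661 low values came within 0.1 of whole numbers after undoing the transformation and a factor of 1.05. In every table, 2028 entries without a symbol were left out, and 35 symbols on more than one entry were kept apart.

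The quasi-likelihood test of edgeR 4.0.16 (TMM, filterByExpr, 3 residual degrees of freedom) was applied to the 6 count libraries for Day 8 against saline, with standard errors derived from the F statistic. Comparisons with Day 3 used limma 3.58.1 (trend, 4 residual degrees of freedom) on log2(value + 1) of all 7 libraries, with values scaled to a library total of 10000000 and then quantile-normalized, for genes with a CPM of 1 in at least 2 libraries. Fold changes on that scale understate changes of low genes. P-values were adjusted by the Benjamini-Hochberg method over all genes tested. The code was tested on simulated data in R 4.3.3. Alternatives were DESeq2 1.42.0, other normalizations, filters and pseudocounts, a replicate block, Day 8 replicate 1 counted with Day 3, counts estimated from the log2 table, and leaving out each library. Groups came from the labels. The members, gene lists and marker lists were chosen with earlier results of these data known. Every collagen could be named. By rule, values by library were given for called members, the 3 most abundant of each class and the paired type IV genes. Of these, Col4a3, Col4a4, Col8a2, Col25a1, Col10a1 and Col28a1 are given by range only, and Col5a1 and Col5a2, outside the rule, were added with their values seen. Promoters were taken from RefSeq (GRCm38.p6) and reading frames from GENCODE M21.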

Additional observations from a re-analysis of the deposited data

Results flagged for a closer look

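In 4 of the 35 tested collagens the 2 CXCL12 groups, set against the same 2 saline-treated libraries, differed from each other. The test of that difference itself is the comparison of Day 8 with Day 3 (limma, unadjusted P under 0.05 and a fold change of 2 or more). It called 4.57% of all 14876 genes tested. The log2 fold change of Day 8 against Day 3 was -2.26 for Col6a6, -1.66 for Col6a4 and 1.46 for Col4a6. The Day 3 libraries of Col9a2 were at or under the floor, and its Day 8 mean was at least 5.33-fold higher than that floor. Its fitted value of 3.23 depended on the pseudocount. Over all 13 alternatives the value ran from 2.64, without Day 8 replicate 2, to 7.09, with counts estimated from the log2 table. None passed the adjusted p of 0.1. No group had enough libraries for a search for single outlying samples.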

How the results depend on the processing

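Sample numbers were small, and the counts of called collagens moved with the libraries. No called collagen reversed its direction under any alternative. For Day 8 against saline, 2 collagens and 453 genes were called. Counting Day 8 replicate 1 with Day 3 gave 6 collagens and 1094 genes, with 58 genes passing an adjusted p of 0.1, and DESeq2 passed 49 genes. For Day 3 against saline, 2 collagens were called, and 4 with TMM log2 CPM, 4 with counts estimated from the log2 table, and 1 without a filter, where 36 genes passed the adjusted p. The 4 on TMM log2 CPM were Col1a2, Col6a1, Col6a5 and Col9a2. For Day 8 against Day 3, 4 collagens were called, 2 without a filter, where 28 genes passed the adjusted p, and 8 when Day 8 replicate 1 was counted with Day 3. In that last fit 8 collagens, 1788 called genes and 1369 genes with an adjusted p under 0.1 were counted, and the collagen median turned from -0.11 to 0.29.

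Leaving out 1 library gave 0 to 5 called collagens for Day 8 against saline (229 to 1527 genes, 0 to 15 with an adjusted p under 0.1, collagen median -0.28 to 0.13). The count was 0 without saline replicate 1 or Day 8 replicate 3, 4 without saline replicate 2 and 5 without Day 8 replicate 1, and the collagen median was 0.13, in the opposite direction, without saline replicate 1. For Day 3 against saline it gave 0 to 3 (260 to 2850 genes, 0 to 2351 adjusted), with 0 without saline replicate 1, 1 without either Day 3 library and 3 without saline replicate 2, where 6 collagens had an adjusted p under 0.1. For Day 8 against Day 3 it gave 0 to 7 (264 to 1647 genes, 0 to 474 adjusted), with 0 without Day 3 replicate 2, 2 without Day 8 replicate 2 or 3, and 7 without Day 8 replicate 1, where 2 collagens had an adjusted p under 0.1. The median of Day 8 against Day 3 was 0.14, in the opposite direction, without Day 8 replicate 1. The collagens whose groups did not overlap then numbered 21 for Day 8 against saline and 27 for Day 8 against Day 3, in place of 7 and 16. The share of all genes rose likewise, to 41.5% and 64.2% in place of 19.2% and 31.8%. Setting the groups apart on the other scale, an alternative chosen after seeing the data, gave 9, 20 and 14 in place of 7, 15 and 16. The shares of all genes were 18.9%, 48.5% and 32.6% in place of 19.2%, 46.4% and 31.8%. Where 1 library of a group was left, it was assumed to vary like the other groups. The cause of these shifts was not tested.

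Whether the replicate numbers pair the libraries was not settled. Same-numbered libraries had correlations of deviations from their group means of -0.17 to 0.01 over 14876 genes. In a group of 2 libraries these deviations are mirror images, so the correlations cannot show that pairing is absent. With the replicate block, 1 collagen and 157 genes were called for Day 8 against saline, 3 collagens and 425 genes for Day 8 against Day 3, and the count for Day 3 against saline stayed within 1.5 times. The depth of 6908790 to 12308982 counts limits the genes under about 1 CPM, such as the 9 untested collagens.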
